A study of Mus musculus with 4 samples.

Results

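Imprinted genes are expressed mainly from the copy inherited from 1 parent. The 45 genes described here were chosen by symbol from 17 imprinted loci, out of 28250 genes listed for each library. Of these, 24 are classed here as paternally and 20 as maternally expressed. Ascl5 has no allele assigned here and no established imprint, and was matched through its gene identifier to Ascl5-ps, which was listed at 0 in all 4 libraries. The RNA came from TBV2, a mouse embryonic stem cell (ESC) line. It was taken after 24 h with solvent (replicates 1 and 2) or 24 h with 5 µM MS-275 (replicates 1 and 2), an inhibitor of class I histone deacetylases. Cells were grown with LIF, a factor that holds ESCs undifferentiated, and the labels name a feeder layer and gelatin-coated plates. No label says whether replicates came from separate cultures, so the p-values measure only the spread between these libraries. Which parent's copy gave the RNA was not measured: the allele named for a gene is textbook background and may not hold in these cells.

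Imprinted genes lie in clusters, each under an imprinting control region that carries DNA methylation on 1 parental copy. The mark is set in the germ line and is kept after fertilization by the zinc finger protein ZFP57, its partner TRIM28 and the maintenance methyltransferase DNMT1, while many other marks are erased. Paternally expressed genes include growth promoters such as Igf2 and maternally expressed genes include growth restrainers such as Grb10 and Phlda2. Several of these genes are active in placenta, in brain and in mesodermal tissues.

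ZFP57 binds the 6 bases TGCCGC when their CpG is methylated, so the windows around gene starts were searched for these letters on both strands. RefSeq start windows of 300 bases (GRCm38.p6, 250 bases before the start) were found for 35 of the 45 genes. The letters were in a window of 12 of them (34.3%), against 3527 of 27025 genes (13.1%) in the whole RefSeq table. They were found for 6 of 17 genes that changed in the blocked test described below and for 5 of 16 that were tested and did not. The 2 remaining genes, Ascl5 and Slc22a2, were not tested. A match is a description of the letters and not a binding site. The windows of 3 genes are shown because the motif lies upstream of the start and the gene rose with MS-275. The 250 bases upstream of the start are printed 5′ to 3′ on the gene's strand, with the motif or its reverse complement (GCGGCA) in capitals.
Mest, chr6:30737800-30738049, plus strand: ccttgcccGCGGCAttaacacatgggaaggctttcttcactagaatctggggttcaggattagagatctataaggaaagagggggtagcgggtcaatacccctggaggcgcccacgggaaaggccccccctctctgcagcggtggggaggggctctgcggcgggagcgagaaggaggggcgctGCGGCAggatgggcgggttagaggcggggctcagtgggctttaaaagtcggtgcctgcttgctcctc
Plagl1, chr10:13090582-13090831, plus strand: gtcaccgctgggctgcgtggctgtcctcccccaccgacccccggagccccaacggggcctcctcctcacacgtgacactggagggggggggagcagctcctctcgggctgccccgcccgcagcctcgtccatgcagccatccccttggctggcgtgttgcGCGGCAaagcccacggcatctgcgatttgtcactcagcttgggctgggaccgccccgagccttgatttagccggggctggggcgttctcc
Zim1, chr7:6696433-6696682, minus strand: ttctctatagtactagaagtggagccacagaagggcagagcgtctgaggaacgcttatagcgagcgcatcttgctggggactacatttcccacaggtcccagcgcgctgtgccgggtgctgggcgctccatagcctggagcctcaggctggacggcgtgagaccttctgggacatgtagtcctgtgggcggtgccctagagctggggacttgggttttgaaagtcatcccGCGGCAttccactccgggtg
Mest holds the letters at 2 places in this stretch, and Plagl1 and Zim1 hold them at 1. Peg3 and Usp29 start 164 bases apart on opposite strands of chromosome 7, and their windows overlap by 263 bases.

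The value of a gene is a normalized expression signal computed by the authors. Its formula is not given in the sources used here, so levels are compared between libraries and not between genes. Sums over genes are printed only for comparing libraries, and genes with large values dominate them. Summed over genes, the values reached 2489.6 and 3629 in the solvent libraries and 2493 and 4359 in the MS-275 libraries. Alignments numbered between 9785619 and 23467935 per library, at 9122347 to 10973569 distinct positions. Repeated positions made up 53.2% and 54.4% of the alignments filed under solvent and MS-275 replicate 1. Under replicate 2 they made up 0% in both conditions, so the files of the replicates differ in more than depth. Across 8022 genes, which are not independent replicates, values correlated better with the alignments filed under the condition's other replicate (Pearson's r of 0.872 to 0.931) than with those filed under their own (0.788 to 0.896). Whether the alignment files were exchanged between replicates was not resolved, and an exchange in both conditions would leave the groups and the pairs as they are. The summed value of the 8 pluripotency markers was 5.21 and 17.3 with solvent and 4.26 and 9.42 with MS-275. None of them was at 0 in any library.

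Changes are differences of log2(value + 0.005), MS-275 minus solvent, which understate the change of low genes. They were tested with limma over the 20336 genes that reached 0.001 in 2 or more libraries, and p was adjusted by the Benjamini-Hochberg method. Of the 45 genes, 42 passed this filter. The other 3 were Ascl5, Ins2 and Slc22a2. Ins2, an insulin gene, was at 0 in 3 libraries and at 0.00211 in MS-275 replicate 2. Slc22a2, an organic cation transporter gene, was likewise at 0 in 3 libraries and at 0.00096 in MS-275 replicate 2. Slc22a3 and Rasgrf1 passed the filter only through the MS-275 libraries.

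The largest differences on the higher side with MS-275 were those of Dio3, Magel2, Nnat, Plagl1 and Peg10, all paternally expressed. The largest on the lower side was that of Grb10, a maternally expressed gene. Their calls depended on the fit. Without a replicate block, limma called 0 of the 42 genes higher and 0 lower at an adjusted p of 0.05, against a background of 0.00492% higher and 0% lower among all genes. At an unadjusted p under 0.05, 11 were higher and 2 lower, against 14.6% and 2.77% of all genes. With solvent replicate 1 left out, 4 genes passed as higher (Dio3, Nnat, Peg10 and Plagl1), and with solvent replicate 2 left out only Dio3 did. When genes with a mean value under 0.01 were not tested, Dio3, Magel2, Nnat, Peg10 and Plagl1 passed as higher and Grb10 as lower, among 36 genes. The background was then 3.16% higher and 0.441% lower.

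The authors call replicate 1 of both conditions old, and a limma fit with the replicate number as a block compares MS-275 with solvent within each replicate. In that fit 18 of the 42 genes rose (42.9%) and 5 fell (11.9%), against 21% and 6.46% of all genes tested. The remaining 19 did not pass. Of the 18, Slc22a3 and Rasgrf1 entered the test only through the libraries where they were high. Of the 23 paternally expressed genes tested, 14 rose and 2 fell (Peg12 and Impact). Of the 19 maternally expressed genes tested, 4 rose (H19, Zim1, Klf14 and Slc22a3) and 3 fell (Grb10, Phlda2 and Ppp1r9a). The median log2 fold change was 0.88 for paternally expressed genes (0.90 in replicate 1, 1.07 in replicate 2) and 0.17 for maternally expressed genes (0.09 and 0.26). Over all genes it was 0.20 (0.13 and 0.24), close to that of the maternally expressed genes. Whether the allele classes differ was not tested.

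The values of the 2 groups did not overlap for 26 of the 42 genes, 20 higher with MS-275 (47.6%) and 6 lower (14.3%), against 32.3% and 12% of all genes. The balance of rises and falls depends on the scaling. With median-ratio scaling the median of all genes moved from 0.20 to -0.01, and the blocked fit called 13 of the genes higher and 6 lower, against 16.5% and 14% of all genes. After quantile normalization the median of all genes was -0.03 and the counts were 16 and 6, against 14.4% and 14.6%. The paternal median was then 0.70 and 0.64, and the maternal median turned to -0.11 with median-ratio scaling. The 23 genes called with the block kept their direction in each of the 16 to 18 alternative settings that gave them a value. On the deposited values the block, the gene filter and the trend do not alter a log2 fold change. Those settings could therefore not change a direction. Of the 23 genes, 16 passed in all 6 fits with a block, which include the fit that chose them. A pseudocount of 0.02 lowered the size of the change by more than 1.5 times for 10 genes with low values. It gave 1.15 for Igf2, 0.96 for Dlk1, 0.46 for Rtl1, 0.83 for Zim1, 1.80 for Magel2, -0.64 for Peg12 and 0.53 for Peg13, and the values for Klf14, Slc22a3 and Rasgrf1 stand with these genes. On distinct alignment positions 40 of the genes could be tested. Of these 9 were higher and 5 lower without the block, against 12.2% and 7.96% of all genes, and 18 and 8 with it, against 24.1% and 21.4%. The 9 were Dio3, Dlk1, Magel2, Nnat, Peg10, Plagl1, Rasgrf1, Slc22a3 and Zim1. The 5 were Grb10, Impact, Phlda2, Ppp1r9a and Ube3a. Rasgrf1, Slc22a3 and, among the 18, Klf14 reached 10 positions only in the MS-275 libraries.

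**Figure D1:**
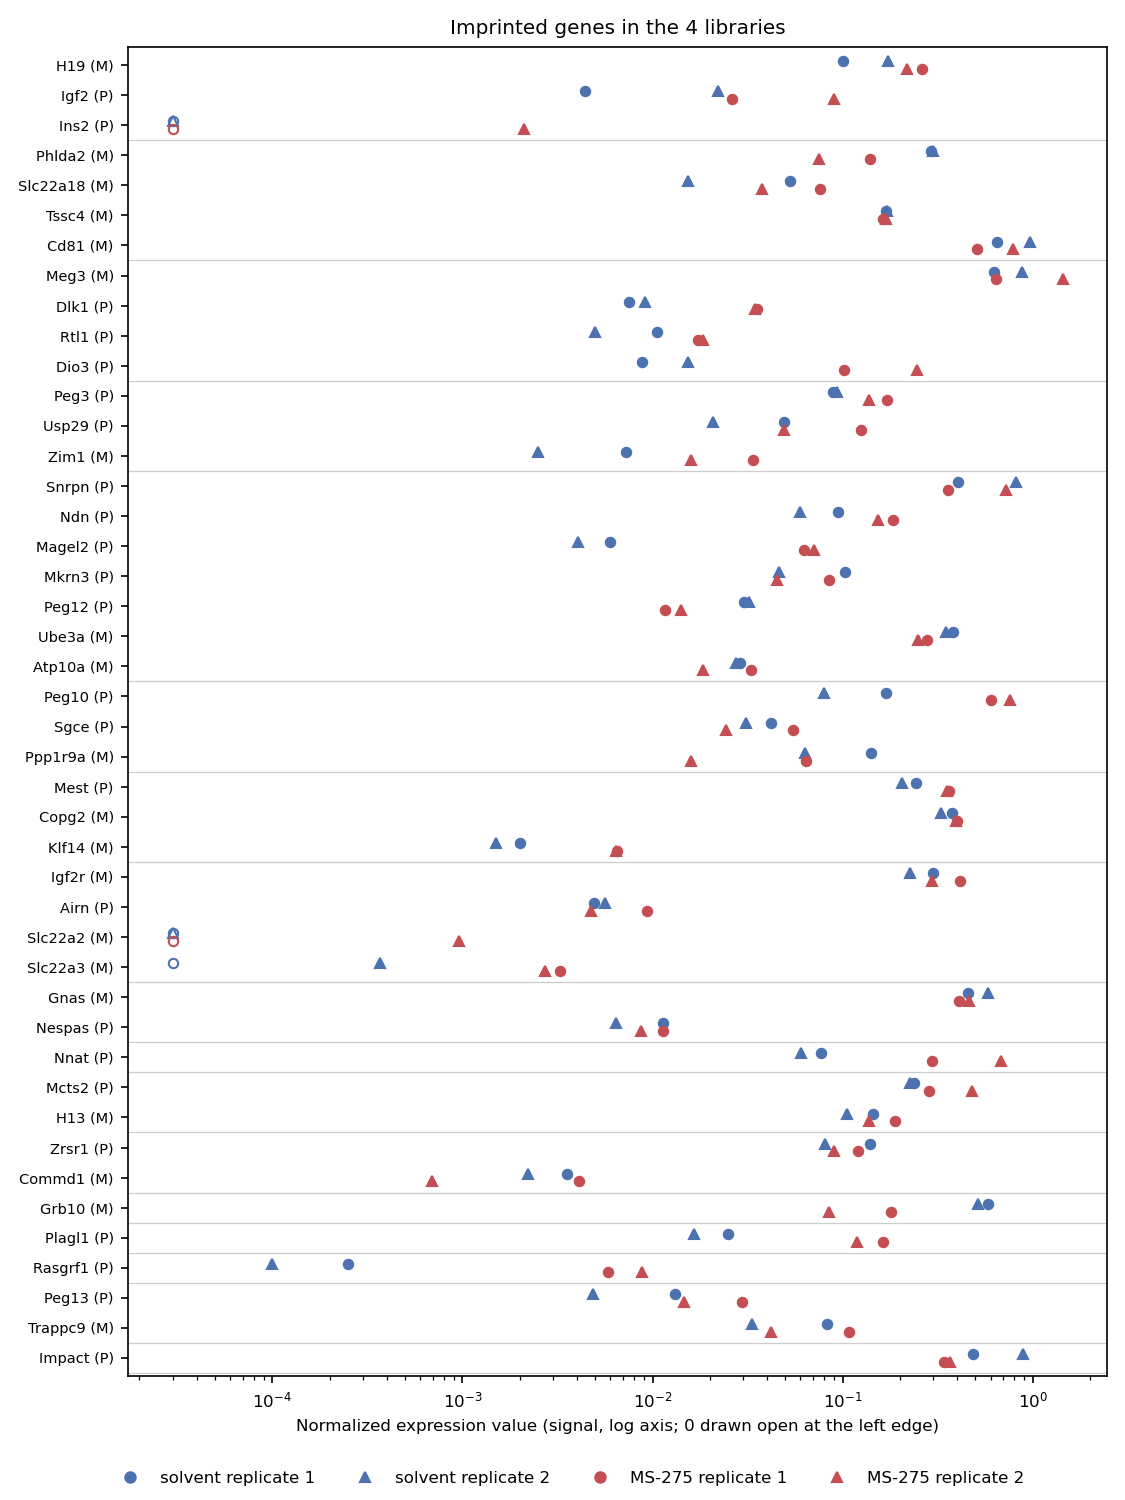
Normalized expression value of the 44 listed imprinted genes in each library, on a log axis, grouped by locus (P paternally, M maternally expressed). Blue marks are solvent, red marks MS-275, circles replicate 1 and triangles replicate 2. The MS-275 values lie above both solvent values for Dio3, Magel2, Nnat, Plagl1 and Peg10 and below both for Grb10, Phlda2, Peg12 and Impact.

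**Figure D2:**
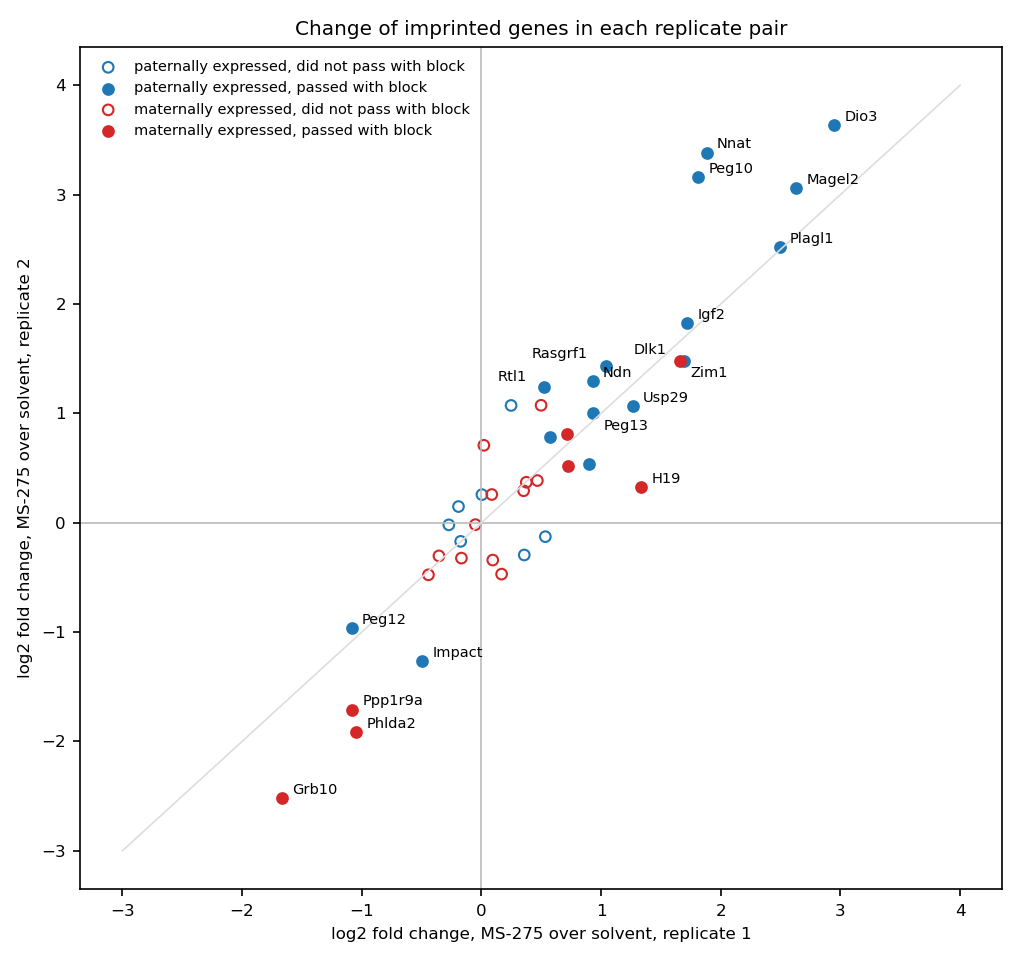
Log2 fold change of MS-275 over solvent in replicate 1 (horizontal) and in replicate 2 (vertical) for the 42 genes tested, blue for paternally and red for maternally expressed genes. Filled points passed with the replicate block, the grey diagonal marks equal changes, and all 23 filled points have the same sign in both replicates. The blocked fit itself favours genes that changed alike in both replicates.

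Markers of other cell types also moved. Each count on the deposited values is to be read against the 21% of all genes that rose and the 6.46% that fell in the blocked fit. There 4 of 12 fibroblast markers rose (Col1a1, Col1a2, Thy1 and Lum) and 0 fell, with summed values of 0.449 and 0.459 with solvent and 0.672 and 0.737 with MS-275. Col3a1 and Prrx1 were lower in both MS-275 libraries than in both solvent libraries. On distinct positions with the block 3 of 11 fibroblast markers tested rose and 3 fell (Col3a1, Prrx1 and Dcn), against 24.1% and 21.4% of all genes. Of 7 trophoblast markers tested 5 rose and 0 fell, with sums of 0.0679 and 0.0476 with solvent and 0.240 and 0.187 with MS-275. Among the 5, Cdx2 and Elf5 entered the test only through the MS-275 libraries, where they were high. Gata3, Lum and the endoderm marker Afp reached 0.001 in only 1 solvent library each, so they also needed MS-275 libraries to be tested. Cdx2 and Gata3 were at 0 in solvent replicate 1. Of 6 endoderm markers 2 rose, with sums of 0.117 and 0.0340 with solvent and 0.213 and 0.0669 with MS-275, and Ttr was at 0 in every library except MS-275 replicate 1. Of 5 neuron markers 1 rose (Syt1), with sums of 1.11 and 2.20 with solvent and 0.933 and 1.72 with MS-275. Most of each sum was Stmn2, at 0.856 and 1.99 with solvent, whose log2 fold change was -0.48 with overlapping groups. Syt1 (1.70) and Tubb3 (0.27) were higher in both MS-275 libraries than in both solvent libraries. Rbfox3 (0.09) and Snap25 (0.47) overlapped between the groups. On distinct positions with the block Syt1 was called higher and Stmn2 lower among 5 neuron markers, against 24.1% and 21.4% of all genes. Of 8 pluripotency markers 3 fell (Pou5f1, Esrrb and Utf1). On distinct positions with the block 6 of the 8 fell and 0 rose, against 21.4% and 24.1% of all genes. The part of these cell types in the changes of imprinted genes was not tested, and in bulk RNA fewer cells of a type and less RNA per cell cannot be told apart.

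The Dlk1-Dio3 locus on chromosome 12 held the gene with the largest rise. Its paternally expressed genes code for the Notch pathway ligand homologue DLK1, the retrotransposon-derived protein RTL1 and the deiodinase DIO3, which inactivates thyroid hormone. Dio3 (mm9 chromosome 12, 111517278 to 111519307) had values of 0.00881 and 0.0153 with solvent and 0.102 and 0.247 with MS-275. Both treated values were far above both solvent values. The log2 fold change was 3.29 ± 0.28 (SE with the block), with an adjusted p of 1.93e-06 with the block and 0.0581 without. It was 2.95 in replicate 1 and 3.63 in replicate 2. Dlk1 (110691033 to 110701546) had values of 0.00756 and 0.00918 with solvent and 0.0356 and 0.0346 with MS-275. This was a log2 fold change of 1.59 ± 0.31 (adjusted p of 0.00134 with the block, 0.209 without). Rtl1 (110827404 to 110838540) was at 0.0105 and 0.00497 with solvent and at 0.0173 and 0.0185 with MS-275. Its difference of 0.88 ± 0.31 was close to the threshold (adjusted p of 0.0469 with the block, 0.495 without), was not called after either rescaling or with the block and a pseudocount of 0.001, and was 0.56 without solvent replicate 2. Rtl1 has an antisense transcript from the maternal copy, and the library preparation did not mark strand as far as it is described. Meg3, the maternally expressed long non-coding RNA of the locus, had values of 0.629 and 0.876 with solvent and 0.638 and 1.43 with MS-275. The groups overlapped and Meg3 did not pass (adjusted p of 0.4002 with the block).

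At the H19-Igf2 locus on chromosome 7 both tested genes rose. Igf2 codes for a fetal growth factor and H19 for a non-coding RNA read from the other parental copy. Igf2 (149836673 to 149852721) was at 0.00443 and 0.0220 with solvent and at 0.0261 and 0.0904 with MS-275. The values just failed to overlap, and within the replicates the log2 fold change was 1.72 and 1.82. The mean change was 1.77 ± 0.30 (adjusted p of 0.000511 with the block, 0.289 without). It was 1.01 without solvent replicate 1 and 0.96 without MS-275 replicate 2, in fits that leave the replicates unbalanced. H19 (149761434 to 149764048) was at 0.1003 and 0.173 with solvent and at 0.260 and 0.218 with MS-275. Its change was larger in replicate 1 (1.33) than in replicate 2 (0.32), with a mean of 0.83 ± 0.25 (adjusted p of 0.0227 with the block, 0.346 without). H19 was 0.45 without solvent replicate 1, and did not pass with median-ratio scaling or on distinct alignment positions (adjusted p of 0.0578 with the block).

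The 3 genes of the Peg3 locus on chromosome 7 rose in both replicates. Peg3, a zinc finger gene (6656603 to 6683132), had values of 0.0891 and 0.0935 with solvent and 0.171 and 0.138 with MS-275. The rise came to 0.72 ± 0.23 (adjusted p of 0.0273 with the block, 0.392 without), and it was not called after median-ratio scaling. Usp29, a gene of the ubiquitin-specific protease family that starts beside Peg3 on the other strand, was at 0.0489 and 0.0209 with solvent and at 0.125 and 0.0494 with MS-275. The lower treated value was only just above the higher solvent value. The change was 1.17 ± 0.27 (adjusted p of 0.00418 with the block, 0.404 without), with 1.26 and 1.07 in the replicates. Leaving out solvent replicate 2, MS-275 replicate 1 or MS-275 replicate 2 gave 0.64, 0.54 and 1.79 for Usp29. Zim1, a zinc finger gene read from the maternal copy, was at 0.00728 and 0.00251 with solvent and at 0.0338 and 0.0160 with MS-275. Zim1 thus rose alongside its oppositely imprinted neighbours, by 1.57 ± 0.30 on the log2 scale (adjusted p of 0.00115 with the block, 0.203 without).

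In the Snrpn region of chromosome 7, whose human counterpart is lost in Prader-Willi and Angelman syndromes, the genes moved in different directions. Magel2 and Ndn, MAGE family genes, rose and their neighbour Peg12 fell. Magel2 (69521865 to 69526526) had values of 0.00596 and 0.00405 with solvent and 0.0630 and 0.0706 with MS-275. The log2 fold change was 2.85 ± 0.31 (adjusted p of 1.32e-05 with the block, 0.0655 without). Ndn (69493163 to 69494814) was at 0.0942 and 0.0598 with solvent and at 0.184 and 0.154 with MS-275. This was a rise of 1.11 ± 0.23 (adjusted p of 0.00203 with the block, 0.196 without). Peg12 (69606757 to 69609396), a relative of the Wnt pathway gene Frat1, was at 0.0303 and 0.0322 with solvent and at 0.0117 and 0.0141 with MS-275. The groups were well apart, and Peg12 fell by 1.02 on the log2 scale, with a standard error of 0.31 (adjusted p of 0.0213 with the block, 0.463 without). Mkrn3, a ring finger gene within the same stretch of the chromosome, had values of 0.103 and 0.0460 with solvent and 0.0845 and 0.0453 with MS-275 and did not pass. Snrpn, which codes for a splicing protein, was at 0.406 and 0.817 with solvent and at 0.359 and 0.725 with MS-275. Its values followed the replicate number more than the treatment, and Snrpn did not pass (adjusted p of 0.656 with the block). On distinct positions with the block it was called lower (-0.41, adjusted p of 0.0233). Ube3a, the maternally expressed ubiquitin ligase gene, was at 0.379 and 0.348 with solvent and at 0.278 and 0.249 with MS-275. The groups did not overlap, but Ube3a did not pass on the deposited values (adjusted p of 0.144 with the block). It was called lower with the block after each rescaling and on distinct positions. Atp10a, a phospholipid flippase gene, overlapped between the groups.

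The Peg10 locus on chromosome 6 held a rise and a fall. Peg10 (4697306 to 4710514), a retrotransposon-derived gene needed in the placenta, had values of 0.169 and 0.0802 with solvent and 0.605 and 0.758 with MS-275. The log2 fold change was 2.48 ± 0.28 (adjusted p of 1.73e-05 with the block, 0.0581 without), with 1.81 in replicate 1 and 3.16 in replicate 2. Sgce, which codes for a sarcoglycan and starts beside Peg10 on the opposite strand, was at 0.0418 and 0.0309 with solvent and at 0.0550 and 0.0242 with MS-275. Its values overlapped, and Sgce did not pass (adjusted p of 0.951 with the block). Ppp1r9a (4853004 to 5115661), the maternally expressed gene of the actin-binding protein neurabin, had values of 0.142 and 0.0635 with solvent and 0.0643 and 0.0159 with MS-275. The groups overlapped, while within each replicate Ppp1r9a was lower with MS-275 (-1.08 and -1.71). The mean change was -1.40 ± 0.27 (adjusted p of 0.00129 with the block, 0.338 without). Without solvent replicate 1 it was -0.85, without MS-275 replicate 1 it was -2.26 and without MS-275 replicate 2 it was -0.53.

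At the Mest locus on chromosome 6, Mest and Klf14 rose and Copg2 did not pass. Mest (30673547 to 30698457), which codes for a hydrolase-like protein of mesodermal tissue, was at 0.244 and 0.204 with solvent and at 0.365 and 0.354 with MS-275. The change was 0.67 ± 0.22 (adjusted p of 0.0352 with the block, 0.446 without), and was not called after median-ratio scaling. Klf14 (30906021 to 30908990), the maternally expressed gene of a Krüppel-like factor, was at 0.00201 and 0.00151 with solvent and at 0.00648 and 0.00641 with MS-275. Its change of 0.76 ± 0.24 rested on 7 and 2 distinct alignment positions with solvent and 23 and 16 with MS-275 (adjusted p of 0.0283 with the block, 0.206 without), and was not called after quantile normalization. The change of Klf14 was 1.44 and 0.28 with pseudocounts of 0.001 and 0.02, and 2.01 on distinct positions with the block. Copg2, a gene of vesicle coat assembly, was at 0.374 and 0.329 with solvent and at 0.398 and 0.394 with MS-275. Mest and Copg2 overlap at their ends: 26.2% of the 35-base words of Mest, the length of an alignment, also occur in Copg2. Reads there cannot be assigned to 1 of them.

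Nnat and Plagl1 were among the genes that rose most. Nnat (chromosome 2, 157385814 to 157388258), a small membrane protein gene of the developing brain, was at 0.0767 and 0.0606 with solvent and at 0.296 and 0.680 with MS-275. The log2 fold change was 2.63 ± 0.29 (adjusted p of 1.33e-05 with the block, 0.0581 without), smaller in replicate 1 (1.88) than in replicate 2 (3.38). Plagl1 (chromosome 10, 12810497 to 12851500), a zinc finger factor that regulates other imprinted genes, was at 0.0251 and 0.0166 with solvent and at 0.164 and 0.119 with MS-275. Its changes of 2.49 and 2.52 in the replicates were nearly the same, with a mean of 2.51 ± 0.26 (adjusted p of 8.70e-06 with the block, 0.0614 without). Rasgrf1 (chromosome 9, 89804613 to 89921814), a Ras exchange factor gene, was at 0.00025 and 0.0001 with solvent and at 0.00582 and 0.00878 with MS-275. The change was 1.24 ± 0.24 (adjusted p of 0.00114 with the block, 0.0646 without). The size of the Rasgrf1 change was set by the pseudocount, at 2.80 with 0.001 and 0.43 with 0.02. With solvent Rasgrf1 had 1 distinct position in each library, against 21 and 20 with MS-275, and on positions with the block the change was 3.72.

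The genes that fell were led by Grb10 and Phlda2, maternally expressed genes known to restrain fetal or placental growth. Grb10 (chromosome 11, 11830511 to 11938686), an adaptor that dampens insulin receptor signalling, had values of 0.581 and 0.513 with solvent and 0.179 and 0.0853 with MS-275. The fall on the log2 scale was -2.09 ± 0.25 (adjusted p of 2.42e-05 with the block, 0.0655 without), with -1.67 in replicate 1 and -2.52 in replicate 2. Grb10 is known to use an upstream start on the maternal copy and downstream starts on the paternal copy in neurons. The upstream first exon (11937195 to 11937404) held 66 and 15 distinct positions with solvent and 29 and 10 with MS-275. Per 1000000 positions these were 6.01 and 1.53 with solvent and 3.18 and 0.916 with MS-275, so the groups overlapped at this exon. Within each replicate number the MS-275 value was the lower one, which was not tested. The 3 downstream first exons held 0 positions in all 4 libraries. The 16 later exons held 170.5 and 226 positions per 1000000 with solvent and 37.7 and 67.9 with MS-275. Phlda2 (chromosome 7, 150687450 to 150688446), a pleckstrin homology domain gene, was at 0.293 and 0.297 with solvent and at 0.139 and 0.0753 with MS-275. This was a change of -1.48 ± 0.24 (adjusted p of 0.000375 with the block, 0.102 without).

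The other 3 genes of the Phlda2 locus among the 45 did not pass on the deposited values. Slc22a18, a transporter gene, was at 0.0526 and 0.0153 with solvent and at 0.0764 and 0.0377 with MS-275 (adjusted p of 0.0540 with the block). Cd81, a tetraspanin gene, was at 0.652 and 0.970 with solvent and at 0.509 and 0.785 with MS-275, and Tssc4 lay between 0.163 and 0.171 in all 4 libraries. On distinct positions with the block, Slc22a18 was called higher (adjusted p of 0.0357) and Cd81 lower (0.0271). Of the words of Tssc4, 10.04% also occur in the adjacent gene Trpm5. Impact (chromosome 18, 13130761 to 13151457), a paternally expressed regulator of translation, fell from 0.485 and 0.887 to 0.343 and 0.367. The change was -0.88 ± 0.26 (adjusted p of 0.0216 with the block, 0.453 without), and -0.45 without solvent replicate 2.

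**Figure D3:**
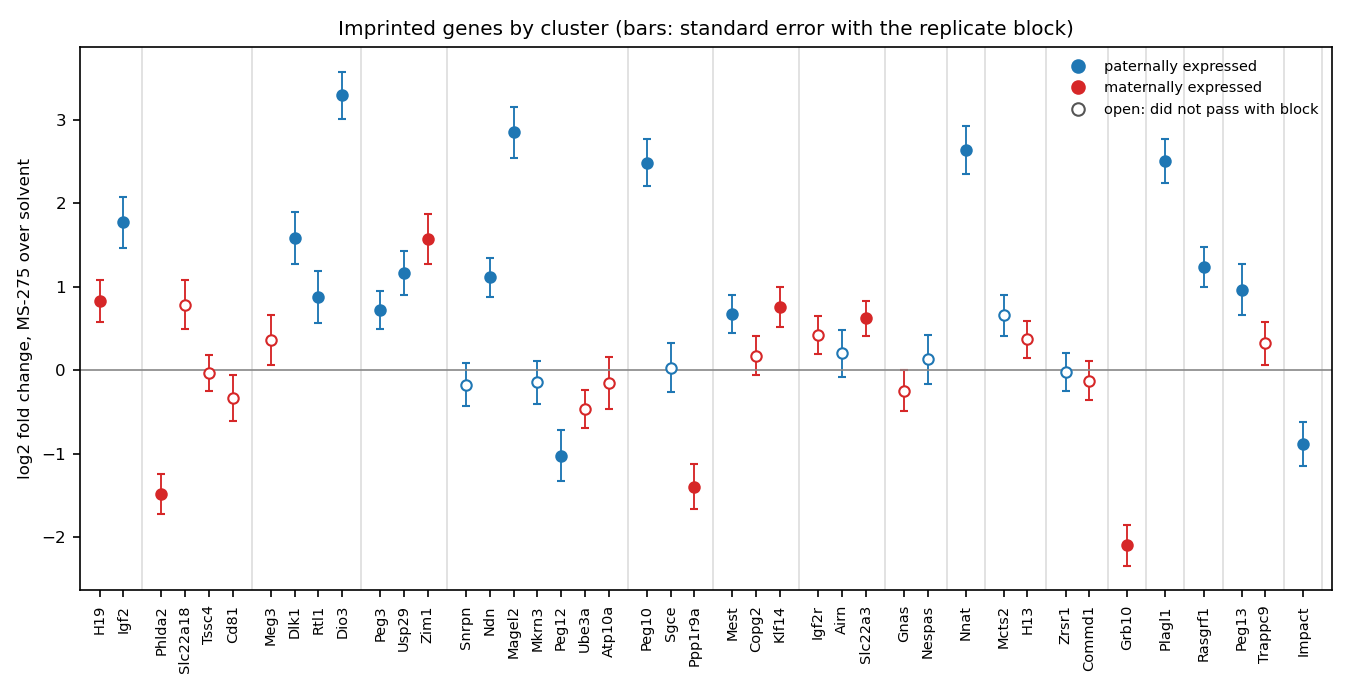
Log2 fold change of MS-275 over solvent (vertical axis) for the 42 genes tested, ordered by locus, with bars of 1 standard error from the fit with the replicate block. Blue points are paternally and red points maternally expressed genes, and open points did not pass with the block. Dio3 stands highest at 3.29 and Grb10 lowest at -2.09, and grey lines part the loci.

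The Gnas locus on chromosome 2 codes for the stimulatory G protein subunit and for transcripts from several imprinted first exons. Gnas had values of 0.458 and 0.579 with solvent and 0.407 and 0.462 with MS-275, and Nespas, its paternally expressed antisense RNA, lay between 0.00644 and 0.0114. Neither passed. The first exons were counted separately on the alignments. Exon 1A (174153071 to 174153442), read from the paternal copy, held 16 and 11 distinct positions with solvent and 25 and 30 with MS-275. The Gnasxl first exon (174123360 to 174125718), also paternal, held 2 and 5 with solvent and 9 and 11 with MS-275. The maternal Nesp first exon held 14 and 11 with solvent and 17 and 22 with MS-275, and it shares its bases with Nespas. Exon 1 of the main transcript held 53 and 34 with solvent and 16 and 35 with MS-275, and it overlaps another gene model, AF085738. Per 1000000 positions the groups did not overlap at any of these 4 first exons: the Nesp, Gnasxl and 1A exons were higher with MS-275 and exon 1 was lower. The counts are small and were not tested one by one. The 10 exons that follow exon 1 overlap AF085738 as well. Bases that Gnas shares with AF085738 or Nespas were left out of its count on distinct positions. On the remaining bases Gnas was higher with MS-275 (0.60 on the log2 scale, adjusted p of 0.0321 in limma-voom with the block), the opposite sign to the deposited values.

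**Figure D4:**
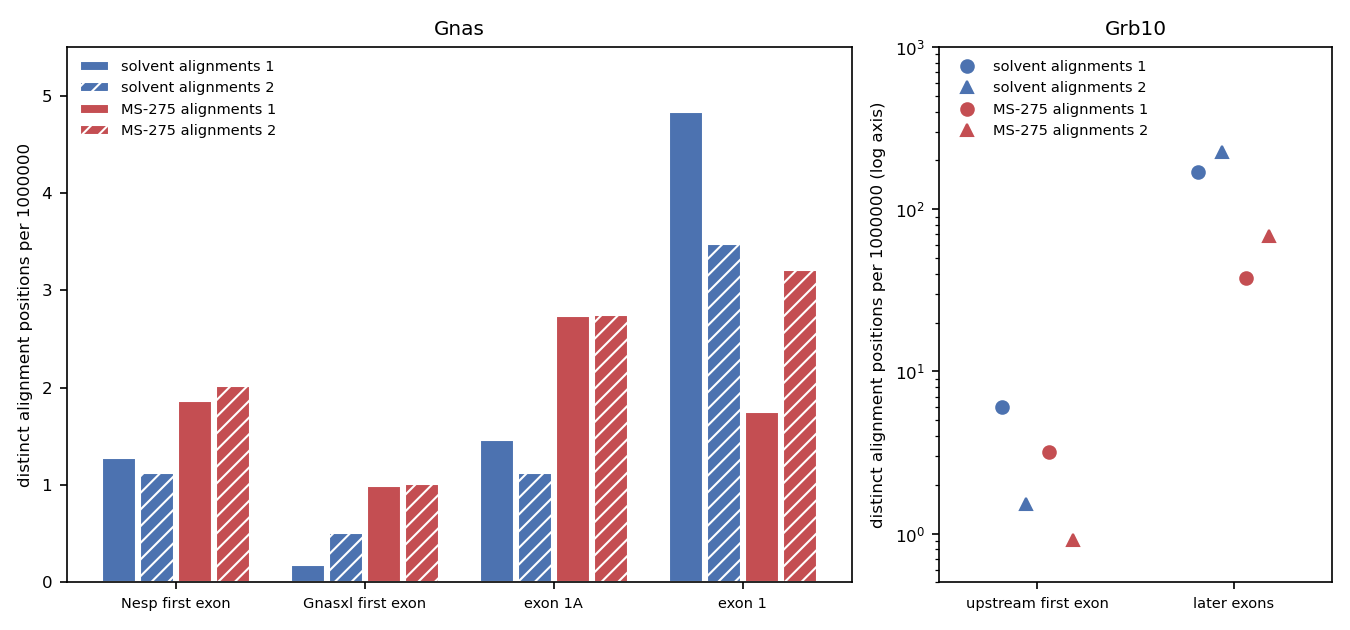
Distinct alignment positions per 1000000 (vertical axes) in parts of Gnas (bars, linear axis from 0) and Grb10 (points, log axis), with blue for solvent and red for MS-275; the numbers 1 and 2 are those of the alignment files. For Gnas exon 1A the MS-275 libraries reached 2.74 and 2.75 against 1.46 and 1.12 with solvent, and for the later exons of Grb10 37.7 and 67.9 against 170.5 and 226.

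Host genes and the genes inside them were measured in 3 loci. Peg13, a non-coding RNA within Trappc9, was at 0.0132 and 0.00486 with solvent and at 0.0297 and 0.0147 with MS-275. Its change of 0.96 ± 0.31 had an adjusted p of 0.0274 with the block and 0.515 without. Peg13 was 0.52 without solvent replicate 2 and 0.56 without MS-275 replicate 1, and did not pass after either rescaling. Trappc9, a gene of vesicle trafficking, did not pass. Mcts2, a retrogene within H13, was at 0.239 and 0.226 with solvent and at 0.285 and 0.480 with MS-275 (adjusted p of 0.0578 with the block), and H13 did not pass. Zrsr1, a splicing factor retrogene within Commd1, lay between 0.0806 and 0.139 in all 4 libraries and did not pass. Commd1 shares 32.7% of its words with other genes and did not pass.

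At the Igf2r locus on chromosome 17, Igf2r clears IGF2 from the cell surface and Airn is the antisense RNA that silences the paternal copies. Igf2r was at 0.299 and 0.225 with solvent and at 0.415 and 0.295 with MS-275, and Airn lay between 0.00474 and 0.00941. Neither passed. Slc22a3, a transporter gene, was at 0 and 0.00037 with solvent and at 0.00327 and 0.00271 with MS-275, with 3 and 0 distinct positions against 17 and 12. Its change on the log2(value + 0.005) scale was 0.62 ± 0.21 (adjusted p of 0.0362 with the block, 0.133 without). It was not called with the block after quantile normalization or with a pseudocount of 0.02 (0.19, adjusted p of 0.0899). The change of Slc22a3 was 1.77 with a pseudocount of 0.001 and 3.29 on distinct positions with the block.

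A separate list of 34 further imprinted genes was examined, of which 31 were tested. In the blocked fit 9 rose and 5 fell (29.0% and 16.1%, against 21% and 6.46% of all genes), with a median of 0.28. Among the 9, Tfpi2, at 0.00245 and 0 with solvent, also needed MS-275 libraries to be tested. On distinct positions with the block 9 rose and 10 fell among 29 genes, against 24.1% and 21.4% of all genes. The largest rises were those of Cdkn1c, a cell cycle inhibitor gene of the Phlda2 locus, and Calcr, the calcitonin receptor gene of the Peg10 locus. Cdkn1c was at 0.182 and 0.112 with solvent and at 0.415 and 1.30 with MS-275 (log2 fold change of 2.32, adjusted p of 0.000276 with the block, 0.0801 without). Calcr was at 0.00325 and 0.00271 with solvent and at 0.0501 and 0.0227 with MS-275 (2.29, adjusted p of 9.90e-05 with the block, 0.0878 without). The largest falls were those of Ddc and Cobl, the neighbours of Grb10. Ddc, a decarboxylase gene of neurotransmitter synthesis, was at 0.193 and 0.218 with solvent and at 0.0541 and 0.0305 with MS-275 (-2.20, adjusted p of 2.47e-05 with the block, 0.0612 without). Cobl, an actin nucleator gene, was at 0.420 and 0.249 with solvent and at 0.194 and 0.0563 with MS-275 (-1.57, adjusted p of 0.000264 with the block, 0.182 without). Kcnq1ot1, the non-coding RNA of the Phlda2 locus, was listed at 0 in all 4 libraries.

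Of 26 genes that set, keep or remove the methylation of imprinted loci, 5 rose and 5 fell in the blocked fit (19.2% each, against 21% and 6.46% of all genes), with a median of -0.19. On distinct positions with the block 7 rose and 11 fell, against 24.1% and 21.4% of all genes. Dppa3, which protects maternal methylation in the early embryo, was at 0.0162 and 0.0234 with solvent and at 0.0731 and 0.413 with MS-275. This was a log2 fold change of 2.88 (adjusted p of 3.73e-05 with the block, 0.0855 without). Dnmt3a, a de novo methyltransferase gene, was at 0.328 and 0.379 with solvent and at 0.612 and 1.22 with MS-275 (1.29, adjusted p of 0.00255 with the block, 0.273 without). Dnmt3b, Dnmt3l and Ctcfl rose as well. Tet1, an oxidase of methylated cytosine, was at 0.717 and 0.936 with solvent and at 0.196 and 0.105 with MS-275 (-2.47, adjusted p of 1.67e-05 with the block, 0.0581 without). Tet2, of the same family, was at 0.428 and 0.403 with solvent and at 0.160 and 0.181 with MS-275 (-1.26, adjusted p of 0.000664 with the block, 0.127 without). Zfp57, Atrx and Ctcf fell as well. Zfp57 was at 0.804 and 0.840 with solvent and at 0.545 and 0.233 with MS-275 (adjusted p of 0.00774 with the block, 0.337 without). Trim28 (0.26, adjusted p of 0.690 with the block) and Dnmt1 (-0.18, adjusted p of 0.632 with the block) overlapped between the groups. Neither passed, also not on distinct positions with the block.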

How the data were processed

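RNA-seq was analysed in 4 libraries of TBV2 ESCs, 2 per group, grouped by their deposited titles. The authors mapped the reads to mm9 and deposited a normalized expression signal per gene made with Genomatix, with no formula stated. They also deposited the aligned positions and tables of ratios between conditions, whose 4 value columns were not used here. The members, lists and tests were chosen with earlier results of these data known.

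Signal values were tested with limma 3.58.1 (lmFit, eBayes with a trend) in R 4.3.3 on log2(value + 0.005), over the 20336 genes that reached 0.001 in 2 or more libraries, two-sided, with Benjamini-Hochberg adjustment over all of them. The block is the replicate number. It pairs the libraries because the authors' headers name replicate 1 old in solvent and MS-275 alike. As a check, deviations from the group means correlated at 0.764 between libraries of the same number. The blocked fit leaves 1 residual degree of freedom per gene, and limma shares the spread across genes. Scripts used Python 3.11.15 with numpy 2.4.6 and pandas 2.3.3.

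Distinct positions of the 35-base alignments were counted on GENCODE M1 exons (mm9) that belong to 1 gene, and limma-voom was run on the 16962 genes that reached 10 positions in 2 or more libraries. Of the 45 genes, 44 were listed by symbol and 43 have an entry in this annotation, the source of mm9 coordinates. Genes were named where they passed in the fit with or without the block, or where the groups did not overlap and the log2 fold change was at least 1 in size. Of the further lists the 2 called genes with the largest change in each direction were chosen to be named. Zfp57, Trim28 and Dnmt1 were added after their values were seen. The other called genes of the maintenance list, Tfpi2 and Kcnq1ot1 were also named beside the counts. Alternatives were other pseudocounts (0.001 and 0.02), filters, scalings and each library left out. The limma fits with and without the block and limma-voom without the block were tested on simulated data. Limma-voom with the block was not.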

Additional observations from a re-analysis of the deposited data

How the results depend on the processing

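The fit with the replicate block decided most calls: 18 imprinted genes higher and 5 lower with it, against 0 and 0 without, and 4277 and 1314 of all genes against 1 and 0. With the block and median-ratio scaling 13 and 6 passed (3335 and 2846 of all genes), with the block and quantile normalization 16 and 6 (2936 and 2961), with the block and a pseudocount of 0.001 17 and 5 (4216 and 1220) and with 0.02 17 and 5 (3790 and 1158). The settings of the pseudocount with the block were chosen after seeing the data. Without the block, a mean of at least 0.01 gave 5 and 1 (466 and 65 of all genes), and distinct positions gave 9 and 5 (2073 and 1350), or 18 and 8 with the block (4083 and 3638), where 21 of the 23 genes were shared. Pseudocounts of 0.001 and 0.02, no filter, either rescaling and no trend gave 0 and 0 of all genes without the block. Leaving out each library in turn gave 0 to 4 imprinted genes higher and 0 lower, and 0 to 160 of all genes higher and 0 to 29 lower. Each such fit leaves 1 library in a group, which is assumed to vary like the others. The median log2 fold change of paternally expressed genes, 0.88, was 1.15 and 0.63 with pseudocounts of 0.001 and 0.02, with and without the block, 0.70 with median-ratio scaling, 0.64 after quantile normalization, and 0.62 to 1.01 with a library left out. For maternally expressed genes, 0.17, it was -0.11 with median-ratio scaling and -0.026 to 0.20 with a library left out. The cause of these shifts was not tested. No gene among the 23 changed direction in any of the 16 to 18 alternatives that gave it a value. Several of these settings (the block, the filter and the trend) do not alter the log2 fold change and could not change a direction. With 2 libraries per group and few positions on genes such as Klf14, Rasgrf1 and Slc22a3, the size of their change is poorly bounded.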
